A study of Mus musculus with 4 samples.

Results

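The slit diaphragm is the filter junction between the foot processes of podocytes, and 7 of its genes were followed through single cells of mouse kidney glomeruli: Nphs1, Kirrel, Cd2ap, Magi2, Trpc6, Tjp1 and Ptpro. They were chosen by gene symbol, and each symbol matched 1 gene, so that 7 of the 52636 genes in the count tables were members. The study set untreated young mice against untreated aged mice, with 2 libraries of isolated glomeruli in each group. Age in months, strain, sex, genotype and the number of animals per library are not among the labels, so the p-values below measure the spread between libraries, which may be technical. The unit is CPM, the unique molecular identifiers of a gene (UMIs, counts of captured transcript molecules) per 1000000 UMIs of the cell class in that library. The libraries tag transcripts near the 3' end, so that a value does not grow with transcript length, and levels of different genes are not ranked against each other.

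Podocytes wrap the glomerular capillaries with interdigitating foot processes, and the slit diaphragm spans the gaps between them as the last layer of the blood filter. Nephrin (Nphs1) and Neph1 (Kirrel) are adhesion proteins of the immunoglobulin superfamily that meet across the slit. Cd2ap, Magi2 and ZO-1 (Tjp1) are adaptors that tie them to the actin cytoskeleton and to signalling proteins, Trpc6 is a calcium-permeable cation channel held in the complex, and Ptpro (also called GLEPP1) is a receptor tyrosine phosphatase of the podocyte surface. Inherited loss or gain of function of several of these genes causes nephrotic syndrome in people.

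In the GRCm38 assembly with the GENCODE vM21 annotation, Nphs1 (ENSMUSG00000006649) lies on the plus strand at chr7:30458315-30487223 and Kirrel (ENSMUSG00000041734) on the minus strand at chr3:87078593-87174747. Cd2ap (ENSMUSG00000061665) lies at chr17:42792951-42876665 on the minus strand and Magi2 (ENSMUSG00000040003) at chr5:19227036-20704792 on the plus strand. Trpc6 (ENSMUSG00000031997) lies at chr9:8544142-8680741, plus strand, Tjp1 (ENSMUSG00000030516) at chr7:65296165-65527781, minus strand, and Ptpro (ENSMUSG00000030223) at chr6:137252319-137463233, plus strand. The annotation places an antisense gene, Nphs1os, inside Nphs1, and it had 9 UMIs in the kept cells against 29467 for Nphs1. Every other gene that overlaps a member had at most 118 UMIs (Gm44794, inside Tjp1, which had 31295).

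The members differed in how far their UMIs were spread over cell types, and the bases before their RefSeq transcription starts differed in CG dinucleotides, the pairs at which vertebrate DNA is methylated. The sequences of the 3 members with the largest shares of their UMIs in podocytes, Nphs1, Ptpro and Magi2, and of 2 members found in every glomerular class, Cd2ap and Tjp1, are therefore shown. Each is the 250 bases before the RefSeq start in GRCm38.p6, 5′ to 3′ on the gene's own strand, with every CG in capitals (the motif CG reads the same on both strands). The windows lie at chr7:30459808-30460057 (Nphs1, plus strand), chr6:137252049-137252298 (Ptpro, plus strand), chr5:19226796-19227045 and chr5:19907268-19907517 (Magi2, plus strand), chr17:42876425-42876674 (Cd2ap, minus strand) and chr7:65371245-65371494 (Tjp1, minus strand). By the GENCODE bounds given above, the windows of Nphs1, Tjp1 and the second Magi2 start lie inside those genes, as does most of the Cd2ap window. The windows thus precede RefSeq starts and are not all upstream of the annotated genes.
Nphs1: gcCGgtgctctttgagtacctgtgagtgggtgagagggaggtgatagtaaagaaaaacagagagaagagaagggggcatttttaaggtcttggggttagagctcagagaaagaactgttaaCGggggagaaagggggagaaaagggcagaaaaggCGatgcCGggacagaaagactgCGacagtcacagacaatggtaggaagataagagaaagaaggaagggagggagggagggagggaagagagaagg
Ptpro: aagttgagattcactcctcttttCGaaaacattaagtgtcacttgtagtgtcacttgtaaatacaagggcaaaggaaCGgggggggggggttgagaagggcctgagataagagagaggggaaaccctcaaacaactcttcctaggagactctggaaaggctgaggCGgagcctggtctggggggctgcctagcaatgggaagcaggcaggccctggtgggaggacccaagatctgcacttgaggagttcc
Magi2, first start: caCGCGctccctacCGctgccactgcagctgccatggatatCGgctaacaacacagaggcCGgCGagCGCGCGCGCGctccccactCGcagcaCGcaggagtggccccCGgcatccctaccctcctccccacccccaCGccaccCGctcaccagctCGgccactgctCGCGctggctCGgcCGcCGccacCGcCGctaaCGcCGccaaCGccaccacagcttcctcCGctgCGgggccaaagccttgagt
Magi2, second start: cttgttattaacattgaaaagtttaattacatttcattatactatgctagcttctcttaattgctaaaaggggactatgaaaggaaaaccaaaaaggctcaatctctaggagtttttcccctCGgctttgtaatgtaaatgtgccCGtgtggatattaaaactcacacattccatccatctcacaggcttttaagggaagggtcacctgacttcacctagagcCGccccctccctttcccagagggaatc
Cd2ap: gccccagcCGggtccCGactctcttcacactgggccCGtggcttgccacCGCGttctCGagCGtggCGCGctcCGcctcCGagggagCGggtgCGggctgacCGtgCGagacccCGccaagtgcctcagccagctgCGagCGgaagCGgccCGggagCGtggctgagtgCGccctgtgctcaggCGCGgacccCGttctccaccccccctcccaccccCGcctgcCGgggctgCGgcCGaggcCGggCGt
Tjp1: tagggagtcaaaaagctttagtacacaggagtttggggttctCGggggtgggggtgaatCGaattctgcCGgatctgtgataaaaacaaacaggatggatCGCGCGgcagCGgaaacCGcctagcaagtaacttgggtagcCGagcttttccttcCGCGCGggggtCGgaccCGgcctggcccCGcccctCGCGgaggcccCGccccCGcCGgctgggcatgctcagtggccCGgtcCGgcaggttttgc
The Nphs1 window holds 5 CG pairs and the Ptpro window 3, against 31 for Cd2ap and 22 for Tjp1. Over the 32851 such windows of all genes the median was 6 pairs, 92.1% held at least 1, 5.19% held as many as Cd2ap and 14.8% as many as Tjp1. All 7 members had an entry. Magi2 had 29 and 3 pairs at its 2 listed starts, so that the podocyte members did not all have few, and Kirrel had 24 and Trpc6 12. These counts describe the letters of the windows and were not tested against expression.

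The deposited matrices held 33323 barcodes, of which 28000 were kept. UMIs per library ran from 18457791 (young replicate 2) to 42046542 (aged replicate 2), and the median per kept cell from 1258 to 3730. Libraries shared 9 to 31 barcodes, at most 0.346% of the smaller one. Young replicate 2 stood apart: 4007 of its 6976 kept cells fell in clusters with markers of more than 1 cell type, against 25 to 126 cells in the other libraries, and these were left out of every class. Cell classes were named from 14 marker lists that hold no member, with the members also left out of the genes used for clustering. The podocyte class had 1766 and 570 cells in young and 987 and 660 in aged libraries. All 10 podocyte markers, among them Wt1, Podxl and Synpo, were detected in it, and their sum was 25685 and 27669 CPM in young and 26654 and 26696 in aged podocytes. The endothelial clusters had 10 of 10 endothelial markers, although the largest of them was led by Sele, Plaur and Il6, which mark activated endothelium, and the mesangial cluster had 6 of 7 mesangial markers. Cluster 17 held the parietal epithelial markers, but the smooth muscle marker Tagln and none of the parietal ones was among its 10 leading genes, so it is called by its number.

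Across cell classes, Nphs1, Magi2 and Ptpro were podocyte genes, Cd2ap and Tjp1 were found in every glomerular class, Kirrel in podocytes, cluster 17 and cells of the mesangial and smooth muscle type, and Trpc6 in mesangial and smooth muscle cells but hardly in podocytes. Of all Nphs1 UMIs in kept cells 87.6% were in podocytes, which supplied 20.1% of all UMIs. The share was 86.8% for Ptpro, 86.6% for Magi2, 59.7% for Kirrel, 50.7% for Cd2ap, 42.1% for Tjp1 and 3.14% for Trpc6. These shares pool libraries that differ: podocytes supplied 13.5% to 39.4% of the UMIs of a library, and by library the share ran from 59.8% to 97.8% for Nphs1, from 38.1% to 70.9% for Cd2ap and from 31.3% to 62.1% for Tjp1. Nphs1, Ptpro and Magi2 had their lowest shares in young replicate 2, where mixed clusters held 35.5% of the Nphs1 UMIs. Their order among themselves changed between libraries, with Magi2 above Ptpro in 3 of 4. These class levels are descriptions with no test, since the classes were built from the same cells.

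Nphs1 averaged 1212 ± 68.5 CPM (SD over 4 libraries) in podocytes and 159 ± 62.2 in cluster 17, and the ranges did not overlap. In endothelial cells it averaged 4.09, and 0.497% to 2.44% of them had a UMI, against 97.5% of podocytes. The podocyte markers summed to 866 to 1448 CPM in the same endothelial cells, and both this sum and Nphs1 were highest in young replicate 2. Median depth was 2316 to 3229 UMIs in endothelial cells and 4194 to 7694 in podocytes.

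Kirrel averaged 84.8 ± 17.9 in podocytes and 85.8 ± 13.3 in cluster 17, with overlapping ranges. Mesangial cells followed with 42.8 ± 6.79 and smooth muscle and renin cells with 40.4 ± 15.2, again overlapping with each other but below podocytes in every library pair. Endothelial cells had 0.535 CPM.

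Among the adaptors, Cd2ap averaged 796 ± 145 in podocytes and 331 ± 47.5 in cluster 17. Mesangial cells (267 ± 76.4) overlapped with cluster 17 and with endothelial cells (171 ± 28.7), and B cells (135 ± 15.9) and the monocyte and dendritic class (138 ± 39.8) overlapped with each other. Tjp1 averaged 615 ± 49.3 in podocytes, 373 ± 21.6 in cluster 17, 275 ± 39.0 in endothelial and 225 ± 61.9 in mesangial cells, where only the last pair overlapped. Magi2 averaged 427 ± 62.3 in podocytes, 48.5 ± 8.27 in smooth muscle and renin cells and 10.9 ± 3.57 in mesangial cells. In B, T and NK cells and the monocyte and dendritic class Tjp1 had at most 30.6 CPM and Magi2 at most 10.8 in any library, while Cd2ap reached 175.

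Ptpro averaged 653 ± 52.7 in podocytes. Outside them it was found in the monocyte and dendritic class at 39.9 ± 16.1, in cluster 17 at 38.5 ± 7.67 and in the macrophages of the 2 aged libraries at 15.5 and 16.4 CPM, against 1.18 to 4.98 in endothelial cells. The macrophage class had only 3 and 7 cells in the young libraries, so it has no young value.

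**Figure D1:**
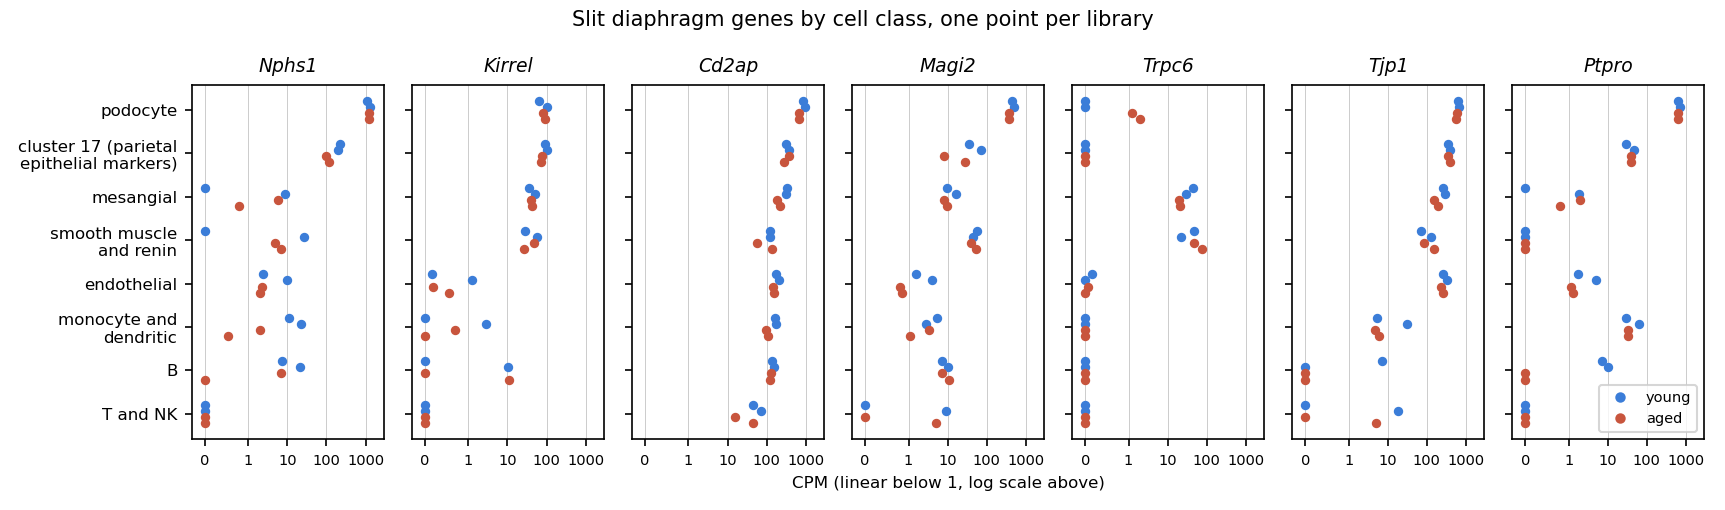
CPM (x axis, linear below 1 and logarithmic above) for the 7 slit diaphragm genes in 8 cell classes, with 1 point per library, young in blue and aged in red. Nphs1, Magi2 and Ptpro peak in podocytes, Cd2ap and Tjp1 reach over 100 CPM in podocytes, mesangial and endothelial cells, and Trpc6 lies at 19.2 or above only in mesangial and smooth muscle and renin cells; distal tubule, macrophage and neutrophil classes, which lack cells in some libraries, are not drawn.

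In podocytes no member passed the test of aged against young. Nphs1, Kirrel and Ptpro had overlapping groups. Cd2ap, Magi2 and Tjp1 were lower in both aged libraries than in both young ones, a share of members near that over all genes. Of 10880 genes tested in podocytes 703 (6.46%) had an adjusted p under 0.05 in edgeR's quasi-likelihood test, in either direction. Of the 7 members 6 passed the filter on low counts, and 0 of these were called, with 1 (Cd2ap) at an unadjusted p under 0.05, as were 16.97% of all genes tested. Groups did not overlap for 3 of the 6, against 46.0% of all genes tested.

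Nphs1 stood at 1115 and 1268 CPM in young and at 1213 and 1250 in aged podocytes. Both aged values lay between the young ones, and the log2 fold change was 0.11 (SE 0.14, adjusted p = 0.796). Kirrel stood at 62.8 and 105.5 in young and at 80.6 and 90.3 in aged podocytes. Its young libraries differed more from each other than the group means did, with a log2 fold change of 0.12 (SE 0.16, adjusted p = 0.799). The sign of the Kirrel value rested on the young library used: without young replicate 2 it was 0.46 (adjusted p = 0.00586, edgeR) and without young replicate 1 it was -0.21.

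Cd2ap, which links nephrin to actin and to endocytic proteins, stood at 864 and 968 in young and at 692 and 662 in aged podocytes. Both aged libraries were lower, by a log2 fold change of -0.38 (SE 0.14, unadjusted p = 0.00930, adjusted p = 0.104), so it did not pass the test. It passed in 2 of 15 alternative settings, those without young replicate 1 (-0.42) or young replicate 2 (-0.33). Over the 15 the values ran from -0.42 to -0.18. The same order held in each of the podocyte clusters. In cluster 2 Cd2ap was 880 and 972 in young and 701 and 664 in aged libraries, and in cluster 7 it was 820 and 950 against 646 and 650.

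Magi2, a scaffold with several protein interaction domains, stood at 441 and 510 in young and at 382 and 376 in aged podocytes. The groups did not overlap, but the log2 fold change of -0.27 (SE 0.13) had an adjusted p of 0.301. Tjp1, the tight junction adaptor ZO-1, stood at 620 and 681 against 594 and 565, also without overlap, with a log2 fold change of -0.11 (SE 0.14, adjusted p = 0.774). Ptpro stood at 628 and 731 against 619 and 633, with overlapping groups and a log2 fold change of -0.06 (SE 0.14, adjusted p = 0.890). Genes induced by tissue dissociation, a list of 15, summed to 45727 and 47999 CPM in young and 45111 and 50021 in aged podocytes, and their part in these values was not tested.

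**Figure D2:**
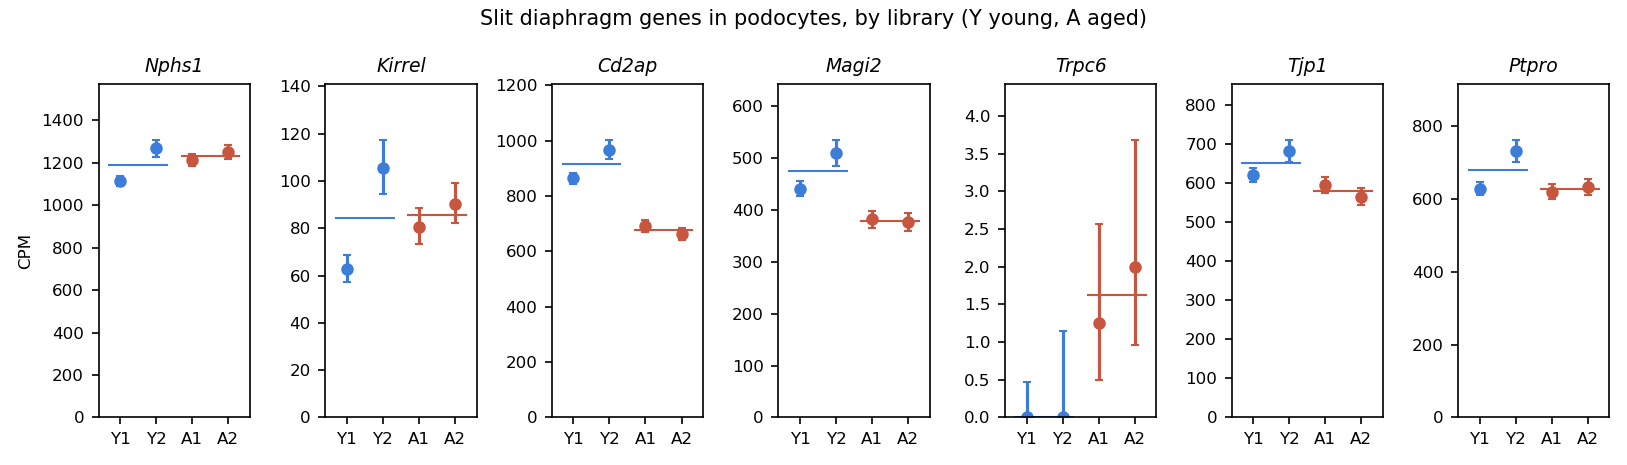
CPM in podocytes (y axis, from 0) for each slit diaphragm gene in young (Y1, Y2, blue) and aged (A1, A2, red) libraries, with 95% Poisson intervals that cover counting error only and a line at each group's mean. Cd2ap is at 864 and 968 in young and 692 and 662 in aged libraries, whereas the Nphs1 groups overlap.

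The share of podocytes with at least 1 UMI was compared after each cell had been thinned to 1000 UMIs, which kept 1762 and 553 young and 986 and 657 aged podocytes. Cd2ap was detected in 56.6% and 60.0% of young and in 50.7% and 46.7% of aged podocytes, and Magi2 in 35.3% and 38.3% against 28.9% and 30.9%. Nphs1 was detected in 66.2% and 69.3% against 69.4% and 69.7%, Kirrel in 5.73% and 7.41% against 8.22% and 9.44%, and Tjp1 in 44.7% and 43.4% against 41.9% and 42.9%. Ptpro overlapped, with 45.6% and 51.5% against 44.0% and 47.9%. Groups thus did not overlap for 5 of the 6 members that passed the filter on low counts, as for 40% of all 10880 genes tested in podocytes. Trpc6 was found in 0 and 0 young and in 1 and 1 aged cells, too few to compare. With 2 libraries against 2 the exact two-sided permutation test cannot go below 0.333, and each of the 5 reached that value. Without thinning the shares were 92.9% and 91.4% against 91.3% and 95.0% for Cd2ap and 77.7% and 85.3% against 79.3% and 86.2% for Magi2, which overlap. Thinned to 2000 UMIs, the Nphs1 and Kirrel groups overlapped too, with 84.2% and 90.4% against 87.6% and 90.1% for Nphs1 and 10.7% and 18.4% against 14.02% and 14.11% for Kirrel.

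The podocyte class was made of 2 clusters that differed in the level of Nphs1. Cluster 7, led by Nphs1, Rab3b, Clic3 and Cdkn1c, held 38.4% and 28.1% of young and 27.6% and 27.7% of aged podocytes, and its cells had fewer UMIs (medians of 3008 to 3884, against 4786 to 8634 in cluster 2). Nphs1 was 1319 and 1555 in young and 1603 and 1631 in aged cells of cluster 7, against 1037 and 1199 and then 1136 and 1176 in cluster 2. Tjp1 lay the other way round, at 528, 560, 429 and 497 in cluster 7 and at 655, 710, 627 and 578 in cluster 2, in the order young 1, young 2, aged 1 and aged 2. These are descriptions of clusters made from the same cells.

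Trpc6 was almost absent from podocytes in these libraries. There were 0 UMIs of the gene among the 10992702 UMIs of young podocytes, which allows up to 0.273 CPM (3 counts, over the group), and 17 among the 10606205 of aged podocytes (1.60 CPM, 95% Poisson interval 0.934 to 2.57). By library the counts were 0 and 0 in young and 7 and 10 in aged podocytes. The lower end of the aged interval lay above the young limit and above the upper end of the young 95% Poisson interval (0.336 CPM). This was over podocytes pooled by group and covers counting error only. At these counts the gene did not pass the filter and was not tested for age in podocytes in the chosen fit. Without the filter it was called, on the same young zeros, and that call is not read as an age effect. Of the aged podocytes 0.971% (16 of 1647) had a UMI, and 16 of the 17 UMIs were in cluster 2.

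Those few UMIs had other signals beside them. The 16 cells had a median of 8519 UMIs, against 6379 in the other aged podocytes, and 1 of the 16 had a UMI of the mesangial marker Itga8, against 1.29% of the others. The 7 mesangial markers summed to 93.7 and 123 CPM in young and 106 and 111 in aged podocytes. The 7 smooth muscle and renin markers summed to 22.2 and 28.2 against 70.8 and 102, with Cnn1 and Rergl at 0 in all 4 libraries. Nearly all of that sum was Tagln (19.8, 25.4, 69.5 and 99.9). The part of these signals in the Trpc6 counts was not tested. Cells and clusters with markers of more than 1 cell type were kept in 1 alternative, in the class whose markers led the cluster. The podocyte class then had 1790 and 3119 young and 1012 and 675 aged cells, with young replicate 2 up from 570. Young podocytes had 13 Trpc6 UMIs in it, all in young replicate 2, and aged ones 18. The pooled levels were then 0.920 CPM in young and 1.67 CPM in aged podocytes.

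The channel's UMIs came mainly from mesangial cells, the contractile pericyte-like cells between the capillary loops. They held 304 of the 541 Trpc6 UMIs in kept cells, with a further 101 in mixed clusters and 78 in mixed cells. The level was 45.4 and 30.3 CPM in young and 19.2 and 21.2 in aged mesangial cells. Smooth muscle and renin cells had 47.4 and 22.2 in young and 48.8 and 73.9 in aged libraries, from 5 to 11 UMIs each. Endothelial cells had 2 UMIs in all, and cluster 17 had 0, which allows up to 3.24 CPM.

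In mesangial cells Cd2ap was the only member called, and it was lower with age. Of 10673 genes tested there 700 (6.56%) were called in either direction, and of the 6 members tested 1 was. Groups did not overlap for 4 of the 6, against 54.4% of all genes tested. An unadjusted p under 0.05 (edgeR) was reached by 3 of the 6, against 21.8% of all genes. Ptpro did not pass the filter, with 15 UMIs. Cd2ap stood at 342 and 321 CPM in young and at 185 and 219 in aged mesangial cells. Both aged libraries were well below both young ones (mean 332 ± 14.8 against 202 ± 23.9, SD, n = 2 each), with a log2 fold change of -0.61 (SE 0.15, adjusted p = 0.0307, edgeR). The call was lost without young replicate 1 (-0.55, adjusted p = 0.304), without young replicate 2 (-0.66, adjusted p = 0.222) with DESeq2 (-0.60, adjusted p = 0.0568), with cells named one by one (-0.57, adjusted p = 0.0621) and with mixed cells kept (-0.45, adjusted p = 0.0779), while the direction stayed.

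Tjp1 stood at 254 and 295 in young and at 156 and 194 in aged mesangial cells, without overlap. Its log2 fold change of -0.54 (SE 0.16) missed the threshold with an adjusted p of 0.0609 (edgeR). It passed in 3 of 15 alternative settings, among them that without aged replicate 2 (-0.65). Over the 15 the values ran from -0.68 to -0.41. Trpc6, at the levels given above, had a log2 fold change of -0.83 (SE 0.23, adjusted p = 0.0516). It passed in 5 of 15 alternative settings, among them those without aged replicate 1 (-0.81) or aged replicate 2 (-0.88). Over the 15 the values ran from -1.06 to -0.46.

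Kirrel stood at 36.1 and 52.1 in young and at 40.2 and 43.0 in aged mesangial cells, with both aged values between the young ones (log2 fold change 0.06, SE 0.20, adjusted p = 0.904). Magi2 stood at 9.89 and 16.1 against 7.96 and 9.70 (-0.39, SE 0.35, adjusted p = 0.575). Nphs1 had 0 and 9 UMIs in young and 26 and 4 in aged mesangial cells.

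Other signals moved in the mesangial class too, and of the 13 marker lists of other classes 8 had sums whose groups did not overlap. Its own 7 markers summed to 6067 and 6055 CPM in young and 6440 and 6053 in aged cells. Podocyte markers summed to 376 and 493 against 349 and 295, smooth muscle and renin markers to 113 and 120 against 192 and 234, endothelial markers to 1654 and 1631 against 1997 and 2061, fibroblast markers to 217 and 222 against 144 and 201, and the 15 dissociation genes to 43223 and 47516 against 32765 and 42127. The 7 parietal epithelial markers summed to 194 and 233 in young and 413 and 514 in aged mesangial cells, with Pax2, Krt8 and Krt18 at 0 in all 4 libraries. Macrophage, erythroid and B cell markers, the other lists without overlap, summed to at most 15.6 CPM. Their part in the Cd2ap, Tjp1 and Trpc6 values was not tested. Mesangial cells numbered 295 and 193 in young and 660 and 494 in aged libraries.

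**Figure D3:**
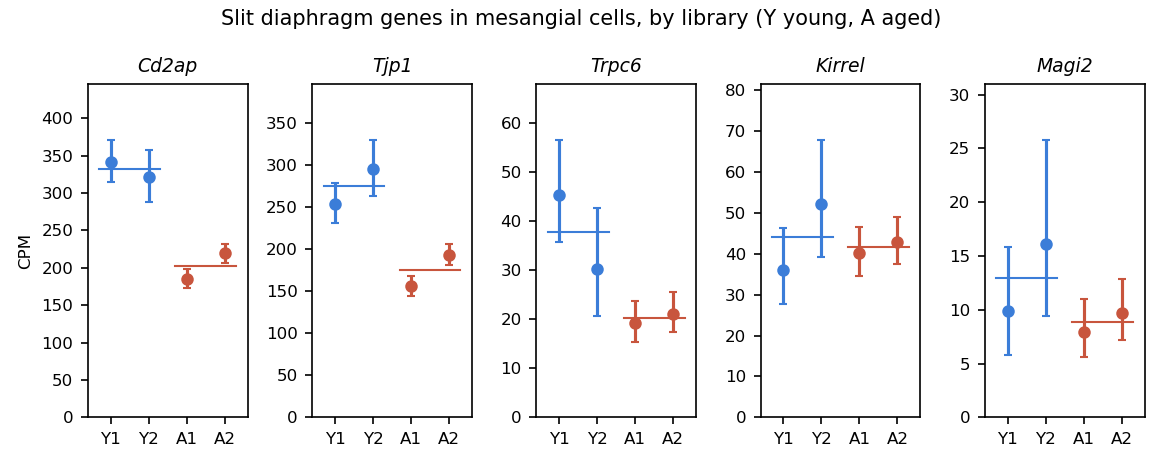
CPM in mesangial cells (y axis, from 0) for 5 slit diaphragm genes in young (Y1, Y2, blue) and aged (A1, A2, red) libraries, with 95% Poisson intervals for counting error and a line at each group's mean. Cd2ap, Tjp1 and Trpc6 lie lower in both aged libraries, with Cd2ap alone past the threshold, the Magi2 groups lie apart by 9.89 against 9.70, and the Kirrel groups overlap. Of all genes tested in mesangial cells 54.4% had groups that did not overlap.

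In endothelial cells 843 of 13173 genes (6.40%) were called in either direction, and of the 5 members tested 0 were, with 3 at an unadjusted p under 0.05 (edgeR), as were 18.9% of all genes tested. Kirrel and Trpc6 did not pass the filter, with 18 and 2 UMIs. Among the 5 tested, groups did not overlap for 4, against 52.4% of all genes tested there. Tjp1, which joins tight junctions in endothelium, stood at 261 and 330 in young and at 239 and 269 in aged cells, with overlapping groups and a log2 fold change of -0.08 (SE 0.15, adjusted p = 0.838). Cd2ap stood at 176 and 209 against 147 and 151, without overlap, at -0.24 (SE 0.14, adjusted p = 0.376). Nphs1, Magi2 and Ptpro were present at 0.805 to 9.71 CPM there. Podocyte markers summed to 1025 and 1448 in young and 888 and 866 in aged endothelial cells, and mesangial markers to 41.2 and 55.2 against 100.1 and 109. These 3 genes were likewise highest in young replicate 2, and the part of such UMIs in their values was not tested.

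Cluster 17 had 30 and 54 young and 46 and 44 aged cells, and its counts are small. In it 102 of 3962 genes (2.57%) were called, and of the 4 members tested 0 were, with 1 (Nphs1) at an unadjusted p under 0.05 (edgeR), as were 16.2% of all genes tested. Trpc6, Magi2 and Ptpro did not pass the filter. Among the 4 tested, groups did not overlap for 2, against 46.5% of all genes tested there. Nphs1 stood at 222 and 201 in young and at 94.7 and 118 in aged cells, from 24 to 43 UMIs per library. The groups did not overlap, and the log2 fold change of -0.94 (SE 0.27) had an adjusted p of 0.0887. Podocyte markers summed to 1606 and 2186 against 1219 and 1357 CPM in the same cells and smooth muscle and renin markers to 2236 and 2530 against 3807 and 2821, and their part in the Nphs1 value was not tested. Kirrel stood at 93.2 and 101 against 74.96 and 74.17, Cd2ap at 308 and 373 against 367 and 275, and Tjp1 at 358 and 397 against 351 and 385, none of which passed.

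**Figure D4:**
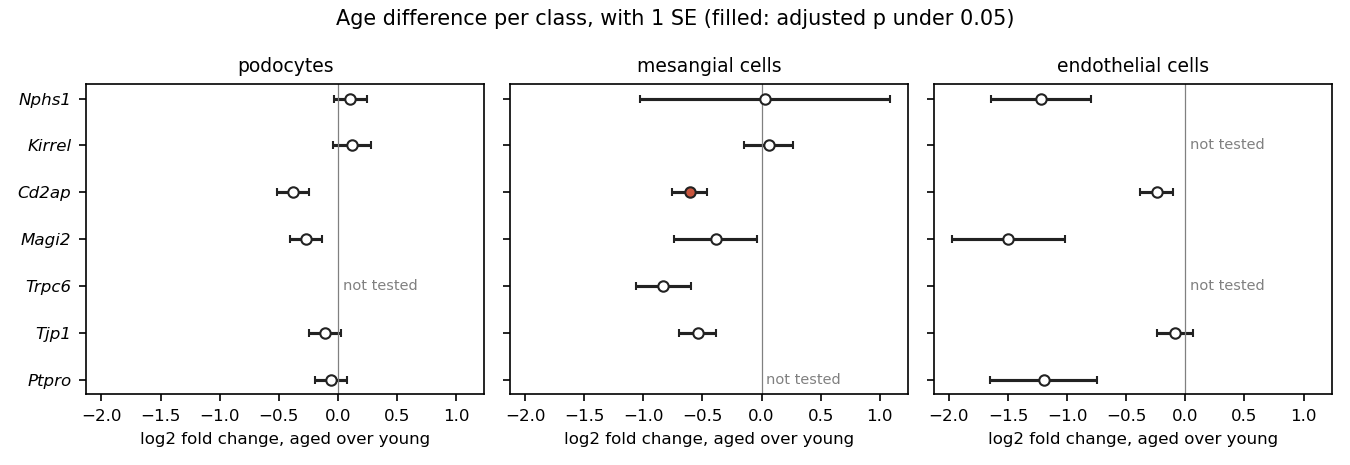
Log2 fold change of aged over young (x axis) with 1 standard error for each slit diaphragm gene in podocytes, mesangial and endothelial cells, with a filled point where the adjusted p was under 0.05. Cd2ap in mesangial cells, at -0.61, is the only filled point, and its value in podocytes is -0.38.

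Whether an age difference itself differed between podocytes and another class was tested as an interaction. Against mesangial cells 577 of 12636 genes (4.57%) were called, and 0 of the members that passed the filter in both classes. Trpc6, which did not pass it in podocytes and entered through its mesangial counts, had an adjusted p of 1.58e-04, which rests on the young podocyte zeros and is not read as a difference in age effects. That value rose to 0.0775 without young replicate 1, and the call was lost when mixed cells were kept (adjusted p = 0.766), with cells named one by one (adjusted p = 0.297) and after thinning (adjusted p = 0.417), and DESeq2 gave no adjusted p. Cd2ap was called in mesangial cells and not in podocytes, but the difference between its age effects was 0.16 on the log2 scale (SE 0.18, adjusted p = 0.754) and did not pass. The Tjp1 difference was 0.36 (SE 0.18, adjusted p = 0.321).

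Against endothelial cells 917 of 13063 genes (7.02%) were called, and of the members only Nphs1, with a difference of 1.26 (SE 0.34, adjusted p = 0.0169). In endothelial cells Nphs1 had 15 and 39 UMIs in young and 37 and 33 in aged libraries, beside the podocyte marker sums given above for the same cells. Without young replicate 2 the difference was 0.21 (adjusted p = 0.901), without aged replicate 1 it was 1.36 (adjusted p = 0.122) and without aged replicate 2 it was 1.11 (adjusted p = 0.169), and with DESeq2 the adjusted p was 0.466. Against cluster 17, 181 of 10856 genes (1.67%) were called and 0 members, with Nphs1 at 0.93 (SE 0.30, adjusted p = 0.0834).

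Around the members, 52 further genes of the slit diaphragm, its polarity and scaffold proteins, endocytic and actin partners and the members' paralogs were read from the same podocyte test. Of the 42 tested, 3 were called, all higher in aged podocytes, against 6.46% of all genes. Among the 703 genes called in podocytes 470 were higher. The median log2 fold change of the list was 0.08, beside 0.00 over all genes, and the values ran from -0.56 to 0.76. Groups did not overlap for 17 of the 42 (40.5%), against 46.0% of all genes tested in podocytes.

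Cxadr, an adhesion protein of tight junctions and of the immunoglobulin superfamily, stood at 76.0 and 96.2 CPM in young and at 137 and 121 in aged podocytes (0.66, SE 0.14, adjusted p = 0.00130). Cblb, a ubiquitin ligase, stood at 47.9 and 58.2 against 79.3 and 70.2 (0.57, SE 0.14, adjusted p = 0.00879). Magi3, a paralog of Magi2, stood at 10.3 and 13.3 against 16.9 and 20.4 (0.76, SE 0.21, adjusted p = 0.0221). All 3 were higher in both aged libraries, and each call depended on the libraries and the processing used. Cxadr was lost without aged replicate 1 (adjusted p = 0.215) or 2 (0.0508), Cblb without aged replicate 1 (0.404), aged replicate 2 (0.141) or young replicate 1 (0.0554), and Magi3 without aged replicate 2 (0.450) or young replicate 1 (0.187). With mixed cells kept none of the 3 passed (adjusted p = 0.0974 for Cxadr, 0.136 for Cblb and 0.649 for Magi3). Cblb was also lost with DESeq2 (0.112) and after thinning (0.194), and Magi3 with DESeq2 (0.372) and with cells named one by one (0.234). Over the libraries left out the log2 fold change ran from 0.52 to 0.79 for Cxadr, 0.45 to 0.66 for Cblb and 0.57 to 0.90 for Magi3.

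Ephrin-B1 (Efnb1), a slit diaphragm protein that binds nephrin, stood at 402 and 449 against 320 and 319 (-0.36, SE 0.13, adjusted p = 0.112). Its groups did not overlap.

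**Figure D5:**
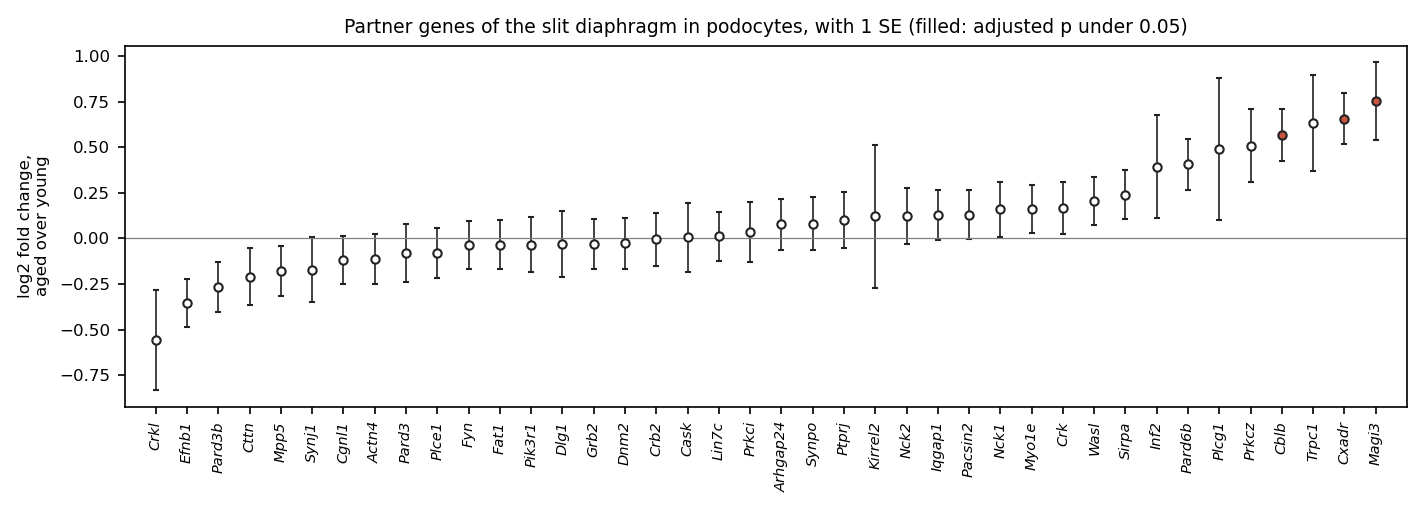
Log2 fold change of aged over young podocytes (y axis) with 1 standard error for 40 of the 42 tested partner genes, ordered by value, with a filled point where the adjusted p was under 0.05. The 3 filled points, Cblb, Cxadr and Magi3, lie between 0.57 and 0.76, and the other genes drawn lie on both sides of 0.

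The paralogs of the members were spread over podocytes and other classes. Kirrel2 had 3.002 to 4.457 CPM in podocytes and 0 UMIs in endothelial and mesangial cells, and Kirrel3 had 0 UMIs in podocytes. Magi1 had 0.357 to 1.29 in podocytes and 7.85 to 10.9 in endothelial cells, where Magi3 had 58.0 to 71.7. Of the channels, Trpc1 had 6.70 to 11.6 in podocytes and 82.5 to 135 in mesangial cells, while Trpc5 had 0 UMIs in podocytes, which allows up to 0.139 CPM. Ptprj, a receptor phosphatase like Ptpro, had 50.3 to 73.9 in podocytes and 5.81 to 8.77 in endothelial cells. In podocytes Trpc1 (0.63, adjusted p = 0.175), Ptprj (0.10, adjusted p = 0.822) and Kirrel2 (0.12, adjusted p = 0.931) were not called.

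The genes with the most similar pattern were sought over 16 sums, 4 glomerular classes in each of 4 libraries, by Pearson's r of log2(CPM + 1) among 8629 genes. The sums share libraries and depth, and the r values describe class patterns only. Nearest to Nphs1 were the transcription factor genes Tcf21 and Lmx1b (both r = 0.987), to Ptpro Cers6 (0.991) and Tmem150c (0.989), and to Magi2 the polarity gene Pard3b (0.994) and Plekha5 (0.979). Nearest to Kirrel were Plxdc2 (0.992) and Cxadr (0.991), to Cd2ap Pgrmc2 (0.977) and Nek1 (0.9749), and to Tjp1 St6gal1 (0.976) and Rad21 (0.971). Trpc6 was nearest to Olfr1034 (0.978) and Gdf10 (0.974). Among the members themselves, Nphs1 and Ptpro were the closest (0.981) and Trpc6 was negatively related to Nphs1 (-0.49) and Tjp1 (-0.51).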

How the data were processed

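The deposited files hold counts of UMIs per gene and barcode, 1 matrix per library, not normalized by the authors. Per the file headers and the submitters' processing notes they were written by Cell Ranger 6.0.1, while the labels' protocol names Cell Ranger 3.1.0, with the Chromium 3' kit v3.1 and GRCm38. Of 52636 gene IDs, 99.7% were found in GENCODE vM21. Barcodes with at least 500 genes and at most 20% mitochondrial UMIs were kept. Scrublet (scanpy 1.11.5) marked 142, 3, 9 and 0 doublets by its own threshold, so the highest scores were removed instead, at 0.8% per 1000 barcodes. Cells were clustered with 2000 variable genes, 30 components, 15 neighbours and leidenalg 0.10.2 at resolution 1. No integration was applied. Of 22 clusters 17 were named from the marker lists, at a marker level of at least 0.35 of the best cluster with at least 3 markers. Clusters or cells in which an unrelated class reached 0.25 were called mixed. These thresholds were chosen with the data in view.

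UMIs were summed per class and library (at least 20 cells) and tested with edgeR 4.0.16 (quasi-likelihood, TMM, default filter, age group only), with Benjamini-Hochberg adjustment over all genes tested. The interaction had the library as a block. Standard errors were derived from the F statistic and the fold change. On simulated podocyte counts over 10725 genes the test recovered 45% of 2-fold and 96% of 4-fold changes. The simulation used a fixed dispersion, larger than that fitted for podocytes, and drew the changed genes at random over all levels. These shares therefore do not give the recovery for the members. Replicate numbers did not pair the libraries. Alternatives were DESeq2 1.42.0, other scalings and filters, other cell definitions, thinning and leaving out each library. In the alternative with mixed cells kept, mixed clusters also joined the class whose markers led them. Intervals cover counting error only. The members, gene lists and tests were chosen with earlier results of these data known. The genes named are the members, partner genes called in podocytes, listed paralogs and the 2 genes of the most similar pattern per member. Efnb1 was named after its values had been seen. Some listed genes are not reported here.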

Additional observations from a re-analysis of the deposited data

Results flagged for a closer look

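The age effect of Nphs1 differed between podocytes and endothelial cells by a test of the difference itself. The effect in podocytes exceeded that in endothelial cells by 1.26 on the log2 scale (adjusted p = 0.0169, edgeR interaction), with endothelial values of 2.02 to 9.71 CPM. The call was lost without young replicate 2 (adjusted p = 0.901), aged replicate 1 (0.122) or aged replicate 2 (0.169), with DESeq2 (0.466), with cells named one by one (0.474), after thinning (0.544), with mixed cells kept (0.584), without doublet removal (0.157) and with members among the variable genes (0.0560).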

How the results depend on the processing

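Counts of calls moved more than directions. With DESeq2 the called genes were 265 in podocytes, 497 in endothelial cells, 378 in mesangial cells and 31 in cluster 17, with 0 members in mesangial cells, 1 partner gene, and 194, 140 and 38 genes and 0, 0 and 0 members in the interactions against endothelial cells, mesangial cells (where the 1 member called in the chosen fit was Trpc6, which had too few podocyte UMIs, and had no adjusted p here) and cluster 17. With cells named one by one the counts were 259 (podocytes), 435 (endothelial), 0 (cluster 17, 639 at an unadjusted p under 0.05) and 0 mesangial members, and the interactions gave 0, 22 and 18 genes and 0 members. Thinned to 1000 UMIs the classes gave 220, 433, 209 and 25 genes, 1 partner gene, and the interactions 208, 95 and 17 genes with 0 members against endothelial or mesangial cells. With mixed cells kept, and mixed clusters put in the class whose markers led them, there were 23 genes in podocytes and 1364 in mesangial cells (0 members). Cluster 17 then had 152 called genes of 4478 and 1 member (Nphs1). There were 0 partner genes, and the interactions gave 0, 0 and 96 genes and 0, 0 and 1 members. Without the filter on low counts the edgeR calls were 0 genes in endothelial cells (2264 at an unadjusted p under 0.05), 1257 in mesangial cells (2 members) and 213 in cluster 17. In podocytes they were 770 of 20006 genes and 1 member, Trpc6, whose call rests on the young zeros and is not read as an age effect. At most 10% mitochondrial UMIs gave 2 mesangial members, beside 676 of 10595 genes called there, and cluster 17 had no named counterpart. It gave 3 members in the endothelial interaction, for which the count over all genes is not reported here. Members among the variable genes gave 2 mesangial members, beside 793 of 10577 genes called there, and 0 in the endothelial interaction. No doublet removal gave 0 members in that interaction, and resolution 2 gave 238 of 4548 genes and 1 member in cluster 17.

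Replicate numbers did not pair the libraries (correlations of deviations from -0.00659 to 0.0718 in the 4 classes). With the replicate block, calls were 1405 of 13173 genes in endothelial cells (2 members) and 1549 of 10673 in mesangial cells (3 members). In cluster 17 they were 242 of 3962 (1 member). The fit without the block called 843, 700 and 102 of the same genes, so calls over all genes rose too.

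Leaving out 1 library gave 300 to 1203 called genes in podocytes (0 to 3 members), 11 to 769 in endothelial cells and 115 to 1871 in mesangial cells (0 to 3 members), and 0 to 9 partner genes. The interactions gave 467 to 716 genes (0 to 3 members) against endothelial cells, 196 to 896 (0 to 1) against mesangial cells and 87 to 111 against cluster 17. The lone library of a group was then assumed to vary like the others.

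Signs turned for uncalled values. In podocytes these were Tjp1 (0.063 with mixed cells kept) and Ptpro (0.026 one by one, 0.028 thinned and 0.16 with mixed cells kept). In mesangial cells they were Nphs1 (-0.21 with DESeq2, -0.72 one by one and -3.87 with mixed cells kept) and Kirrel (-0.36 thinned). In cluster 17 they were Cd2ap (0.24 one by one, 0.11 without doublet removal and 0.043 without the filter) and Tjp1 (0.12 without the filter). Over the libraries left out, Kirrel ranged from -0.21 to 0.46 and Ptpro from -0.13 to 0.015 in podocytes, Tjp1 from -0.20 to 0.037 in endothelial cells, Nphs1 from -1.28 to 6.64 and Kirrel from -0.20 to 0.31 in mesangial cells, and Cd2ap from -0.27 to 0.13 and Tjp1 from -0.082 to 0.068 in cluster 17. The share of podocytes with a UMI, aged minus young, turned to 0.98 (Cd2ap), 1.29 (Magi2), 4.47 (Tjp1) and 4.90 (Ptpro) percentage points with all UMIs, to -0.49 for Kirrel at 2000 UMIs, and ran from -5.56 to 0.41 for Ptpro without 1 library. The cause of these changes was not tested, and 2 libraries a group limit every test.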

Other observations

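Sh3kbp1, which encodes CIN85, the close relative of the adaptor Cd2ap, had its higher level in mesangial cells, whereas Cd2ap was highest in podocytes. It had 0.891 to 2.32 CPM in podocytes and 88.7 to 154 CPM in mesangial cells. This gene was singled out after its values had been seen.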
